A study of Mus musculus with 6 samples.

Results

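Endoplasmic reticulum (ER) chaperones and quality control were followed through 5 genes, Hspa5, Hsp90b1, Canx, Serp1 and Derl1, in hearts of Pgc1b knockout and wild-type mice. The genes were taken by name, as the probe sets with values whose only gene symbol in the platform annotation was one of these 5. They account for 6 of the 643 probe sets for genes with values, and for 5 of the 494 named genes. Serp1 had 2 probe sets with values, and each of the other genes had 1, of 2 to 4 that the array holds for them.

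The hearts came from 3 Pgc1b knockout mice and 3 wild-type mice, all on a mixed background of sv129 and C57BL/6, with free access to food and water. Pgc1b, named Ppargc1b in current tables, encodes a coactivator of nuclear receptors and of genes of mitochondrial metabolism. Age and sex were not given in the sources used here, nor whether the deletion was limited to a cell type, and Ppargc1b itself was not analysed here. RNA of each whole heart was amplified and hybridised to 1 Affymetrix 3′ expression array, and every value below is the deposited log2 signal of a probe set, so that 1 unit is a doubling.

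Proteins that are to be secreted or set into membranes enter the ER as they are made and fold there with the help of chaperones and of enzymes for sugar chains and disulphide bonds. When unfolded protein builds up, the sensors of the unfolded protein response raise the genes of these chaperones and of the machinery that returns failed proteins to the cytosol for degradation. Heart muscle also relies on the ER-derived sarcoplasmic reticulum to store calcium, and several ER chaperones bind calcium. Hspa5 encodes BiP, the main chaperone of the ER lumen, which also holds the sensors of the response inactive. Hsp90b1 encodes endoplasmin, the lumenal member of the Hsp90 family, and Canx encodes calnexin, a membrane chaperone that binds glycoproteins. Serp1 encodes a small ER membrane protein of the translocation channel that is linked to stress of the ER, and Derl1 encodes derlin-1, a membrane protein of the route by which misfolded proteins leave the ER.

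The promoters of the chaperone genes are shown because they carry the control element by which chaperones of the ER are known to be raised together, and because the covariation of these genes is described below. The sequences are RefSeq's for GRCm38.p6, and 4 of the 5 genes matched an entry. Each runs 5′ to 3′ on the strand of the gene, from 250 bases before to 50 bases after the annotated start of transcription. Capitals mark every match to the ER stress response element, which is CCAAT, any 9 bases and CCACG, on either strand. The windows are chr2:34771840-34772139 on the plus strand for Hspa5, chr10:86705395-86705694 on the minus strand for Hsp90b1, chr11:50325624-50325923 on the minus strand for Canx and chr3:58525835-58526134 on the minus strand for Serp1.
Hspa5: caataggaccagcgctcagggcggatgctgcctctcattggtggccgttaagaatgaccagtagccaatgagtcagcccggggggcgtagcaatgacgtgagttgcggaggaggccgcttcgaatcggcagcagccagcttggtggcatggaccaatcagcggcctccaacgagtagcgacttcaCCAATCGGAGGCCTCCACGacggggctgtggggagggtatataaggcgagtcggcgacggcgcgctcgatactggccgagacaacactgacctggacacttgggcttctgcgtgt
Hsp90b1: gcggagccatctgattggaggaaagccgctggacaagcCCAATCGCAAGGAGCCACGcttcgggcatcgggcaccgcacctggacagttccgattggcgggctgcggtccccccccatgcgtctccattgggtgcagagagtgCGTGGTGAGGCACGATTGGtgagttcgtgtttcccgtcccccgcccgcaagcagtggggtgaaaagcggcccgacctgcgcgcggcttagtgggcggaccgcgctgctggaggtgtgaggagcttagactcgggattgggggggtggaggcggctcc
Canx: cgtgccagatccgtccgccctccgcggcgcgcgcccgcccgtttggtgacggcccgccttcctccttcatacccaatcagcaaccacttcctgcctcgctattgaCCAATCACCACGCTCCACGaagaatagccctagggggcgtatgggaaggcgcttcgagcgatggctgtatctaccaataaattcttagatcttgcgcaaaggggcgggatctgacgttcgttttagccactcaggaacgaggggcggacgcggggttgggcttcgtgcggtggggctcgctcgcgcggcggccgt
Serp1: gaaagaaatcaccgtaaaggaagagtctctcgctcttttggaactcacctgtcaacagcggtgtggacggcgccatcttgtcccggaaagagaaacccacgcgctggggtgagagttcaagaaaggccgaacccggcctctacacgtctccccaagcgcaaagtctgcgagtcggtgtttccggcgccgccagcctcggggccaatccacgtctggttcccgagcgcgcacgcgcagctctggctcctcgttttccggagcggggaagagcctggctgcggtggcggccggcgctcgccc

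The element was present in the promoters of Hspa5, Hsp90b1 and Canx, and was not matched in the window of Serp1. Hspa5 had 1 match on the strand of the gene, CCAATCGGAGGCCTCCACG, starting 65 bases before the start of transcription. Hsp90b1 had 2, of which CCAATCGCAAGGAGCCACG started 212 bases before it, and the other lay on the opposite strand with its first base in the window at 107 bases. Canx had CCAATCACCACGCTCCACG at 145 bases. Of 32851 mouse promoter windows of the same length in that table, 39, or 0.119%, held a match on either strand. The window is too short to speak for distal sites, and a match is a string of letters. A shorter element of such promoters, ATTGG, any 1 base and CCACG, was found in 0 of the 4 windows, and in 0.0365% of all windows. Its ending CCACG also ends the longer element, so matches to the 2 motifs can share letters. Of 7 other measured ER genes with a promoter entry, 0 held the longer element. Exact matches were looked for in the sequence only, so copies that differ by a base were not counted. No binding was measured in these hearts.

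**Figure D1:**
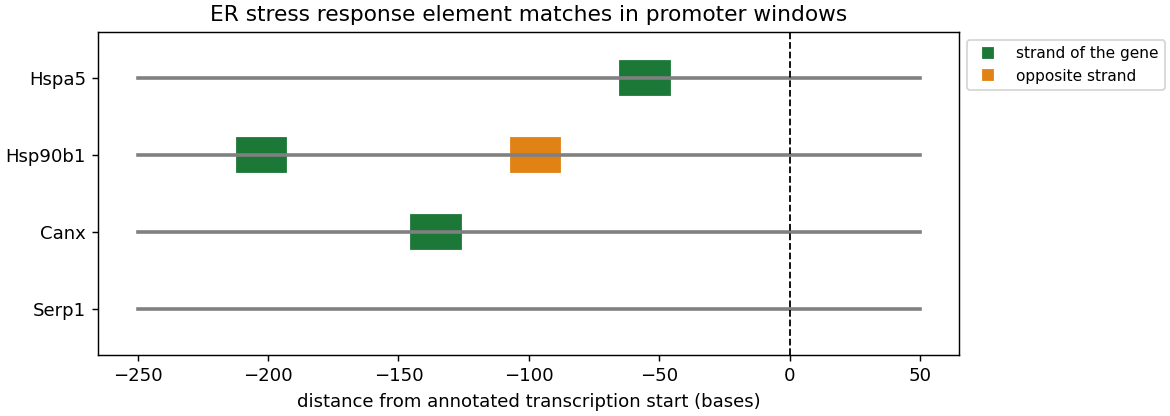
Matches to the ER stress response element (19 bases each, boxes) in the promoter windows of 4 genes, placed by distance in bases from the annotated start of transcription (dashed line). Hspa5 and Canx hold 1 match each on the strand of the gene, Hsp90b1 holds 2 on opposite strands, and Serp1 holds 0.

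The levels of the 5 genes did not separate the knockout from the wild-type hearts. In limma, fitted over all 494 genes, 0 of the 5 passed an adjusted p under 0.05, with adjusted p-values of 0.751 to 0.983. The background was 0% of all genes called at that threshold, 11.5% (57 genes) at an unadjusted p under 0.05 and 2.43% (12 genes) at an unadjusted p under 0.01, and 0 of the 5 genes were among either of these. The groups overlapped in all 5 genes, whereas they did not overlap in 19.4% of all genes. The mean was higher in knockout hearts for 4 of the 5, against 52.4% of all genes. The median difference of the 5 was 0.04 on the log2 scale, and 0.01 over all genes. The labels call the samples biological replicates. The p-values set each difference of means against the variance between hearts, which limma draws towards that of all genes.

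Hspa5 had log2 levels of 10.70, 10.86 and 10.55 in knockout hearts 1 to 3, against 10.85, 10.58 and 10.34 in wild-type hearts 1 to 3. The highest values were those of knockout heart 2 and wild-type heart 1, and wild-type heart 3 was the lowest of the 6. The means were 10.70 ± 0.16 in knockout hearts and 10.59 ± 0.26 in wild-type hearts (SD, n = 3 each). The difference was 0.11 (95% interval -0.22 to 0.44, adjusted p = 0.760 in limma). Without wild-type heart 3 the difference was -0.01.

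Hsp90b1 had log2 levels of 9.50, 9.58 and 9.56 in the knockout hearts, against 9.74, 9.47 and 8.99 in the wild-type hearts. All 3 knockout values lay inside the range of the wild-type hearts, which spanned 0.75 units, a 1.68-fold span, and wild-type heart 3 was again the lowest. The means were 9.55 ± 0.04 in knockout hearts and 9.40 ± 0.38 in wild-type hearts (SD, n = 3 each). The wild-type hearts were thus the more spread, a difference that was not tested. The difference of the means was 0.15 (95% interval -0.26 to 0.55, adjusted p = 0.751 in limma). Without wild-type heart 3 it was -0.06, and without wild-type heart 1 it was 0.32.

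Canx, the membrane chaperone, was the steadiest of the 5. Its log2 levels were 9.70, 9.79 and 9.79 in the knockout hearts, against 9.74, 9.88 and 9.62 in the wild-type hearts. The lowest and the highest value both belonged to wild-type hearts, and the lowest was heart 3. The difference was 0.01 (95% interval -0.19 to 0.20, adjusted p = 0.983 in limma), the narrowest interval of the 5 genes, and its sign depended on the fit. Without wild-type heart 3 the difference was -0.05.

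Serp1, of the translocation channel, had log2 levels of 8.002, 8.13 and 8.12 in the knockout hearts on its brighter probe set, against 7.84, 8.11 and 8.17 in the wild-type hearts. Here wild-type heart 3 was the highest of the 6 and wild-type heart 1 the lowest, the reverse of their order in Hsp90b1. The difference was 0.04 (95% interval -0.20 to 0.27, adjusted p = 0.896 in limma), and -0.06 without wild-type heart 1.

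The dimmer probe set of Serp1 had 7.30, 7.62 and 7.82 in the knockout hearts, against 7.26, 7.21 and 7.66 in the wild-type hearts. Hearts 3 of both genotypes and knockout heart 2 were high on it, and the groups overlapped. The difference was 0.20 (95% interval -0.18 to 0.59, adjusted p = 0.690 in limma over the 643 probe sets), wider in size and in error than on the brighter probe set. Across the 6 hearts the 2 probe sets had a Pearson r of 0.59 (exact permutation p = 0.224) and a Spearman rho of 0.66 (exact permutation p = 0.175), and r = 0.26 without the 2 hearts farthest from the median of the brighter one. A value of Serp1 in a single heart therefore depended on the probe set used.

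Derl1, of the export route for misfolded proteins, had log2 levels of 6.47, 6.87 and 7.14 in the knockout hearts, against 6.89, 6.97 and 6.84 in the wild-type hearts. Its spread was the reverse of that of Hsp90b1, with an SD of 0.34 in knockout hearts and 0.07 in wild-type hearts (n = 3 each), also untested. Knockout heart 1 was the lowest and knockout heart 3 the highest, a 1.59-fold span with the wild-type hearts between them. The difference was -0.07 (95% interval -0.44 to 0.30, adjusted p = 0.873 in limma), and 0.11 without knockout heart 1.

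**Figure D2:**
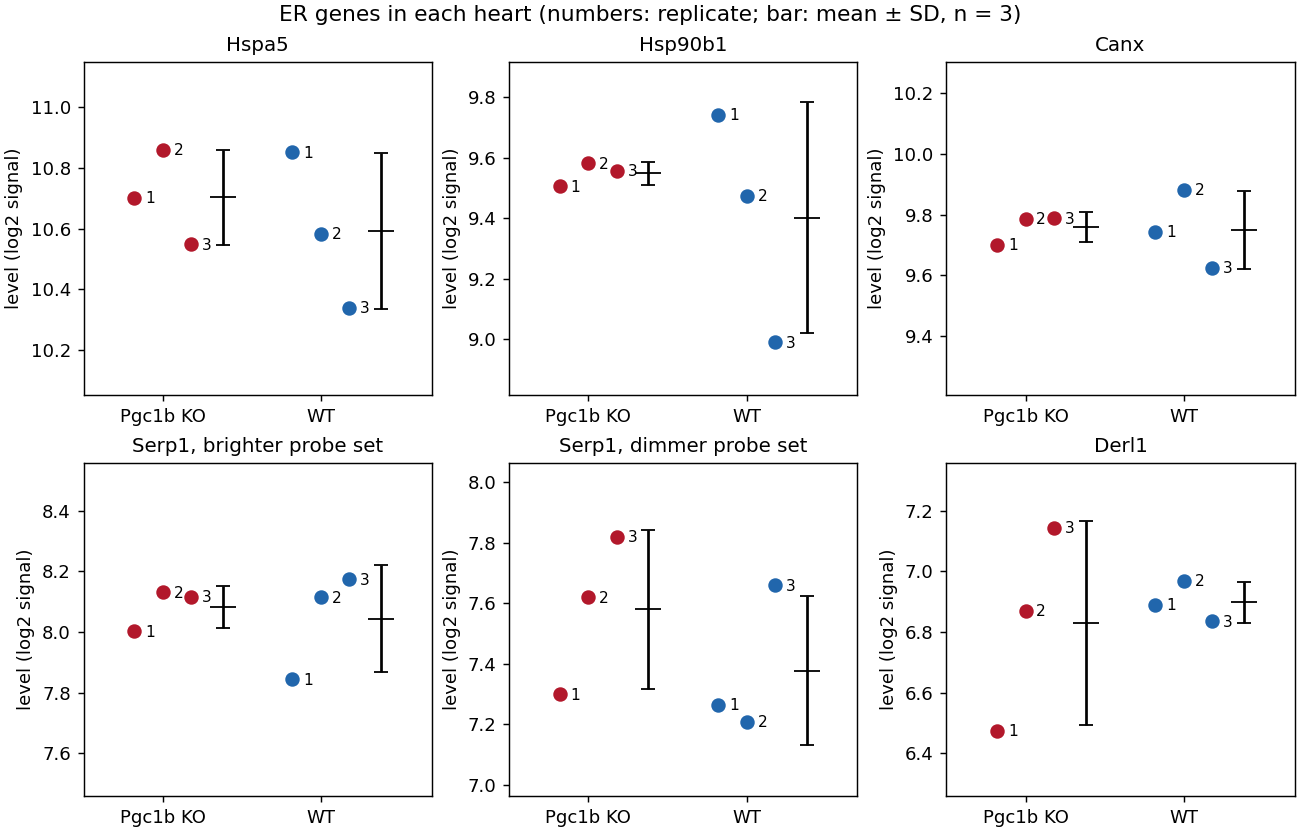
Log2 signal of the 6 probe sets of Hspa5, Hsp90b1, Canx, Serp1 and Derl1 in each heart (points, numbered by replicate), with the mean and SD of each genotype (bars, n = 3); every panel spans 1.1 log2 units. Wild-type heart 3 is the lowest for Hspa5, Hsp90b1 and Canx (10.34, 8.99 and 9.62), and knockout hearts 1 and 3 are the extremes for Derl1 (6.47 and 7.14).

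Pooled over the genotypes, the spread between hearts was larger for the lumenal chaperones and Derl1 than for most measured genes. For Hsp90b1 this came from the wild-type hearts, with an SD of 0.38 against 0.04 in knockout hearts (n = 3 each). For Derl1 it came from the knockout hearts, with an SD of 0.34 against 0.07 in wild-type hearts. The SD within genotypes, pooled over both, was 0.27 for Hsp90b1, 0.24 for Derl1 and 0.21 for Hspa5, where the median of all genes was 0.11. It was smaller than that of Hsp90b1 in 94.3% of genes, than that of Derl1 in 91.9% and than that of Hspa5 in 88.3%. Serp1, with 60.9% of genes below it, and Canx, with 39.1%, lay nearer the middle. Wild-type heart 3 was the lowest heart in 3 of the 5 genes and in 17.6% of all genes, and the highest heart in 19.6% of all genes, so it was not low across the array.

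The 5 genes did not vary across hearts as 1 group. Of their 10 pairs, 7 had a positive Pearson r, with a median of 0.19, where all 121771 pairs of measured genes had a median of 0.03 and 52.1% above 0. The hearts of both genotypes enter each value, and all genes share the same 6 arrays. The strongest pair was Hspa5 with Hsp90b1, the lumenal chaperones. Their Pearson r was 0.86 (exact permutation p = 0.0167, 0.167 adjusted over the 10 pairs) and their Spearman rho 0.77 (exact permutation p = 0.103, adjusted p = 0.514), so the pair did not pass the adjustment. An r above 0.8 was found in 3.69% of all pairs. With each heart taken as its deviation from the mean of its genotype, r was 0.85. The promoters of both genes hold the element, as does that of Canx, and its part in this relation was not tested.

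The relation leaned on wild-type heart 3. Without the 2 hearts farthest from the median of Hspa5, knockout heart 2 and wild-type heart 3, r was 0.79 over 4 hearts. Without wild-type heart 3 alone it was 0.67 (exact permutation p = 0.183). Leaving out any other single heart gave 0.82 to 0.94, with exact permutation p from 0.0167 without knockout heart 3 to 0.0667 without wild-type heart 1. Each genotype holds 3 hearts, too few for a correlation within it.

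Canx, whose promoter also holds the element, had no relation to either lumenal chaperone that passed a test. Its r was 0.58 with Hsp90b1 (exact permutation p = 0.254, adjusted p = 0.631, rho 0.20 with exact permutation p = 0.714) and 0.34 with Hspa5 (exact permutation p = 0.517, adjusted p = 0.756, rho 0.14 with exact permutation p = 0.803). These turned to -0.39 and -0.46 without wild-type heart 3, and to -0.30 and -0.59 without the 2 hearts farthest from the median of the chaperone it was set against. Serp1 ran the other way from the lumenal chaperones, with r = -0.66 against Hsp90b1 (exact permutation p = 0.189, adjusted p = 0.630, rho -0.49 with exact permutation p = 0.356) and -0.63 against Hspa5 (exact permutation p = 0.176, adjusted p = 0.630, rho -0.43 with exact permutation p = 0.419). Without the 2 hearts farthest from the median of the chaperone the first became 0.41 and the second -0.99. On the dimmer probe set of Serp1 they were -0.33 and -0.38 (exact permutation p = 0.651 and 0.435, rho -0.09 and -0.43).

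Derl1 had no such relation to Hspa5 and Hsp90b1 either, with r of -0.18 and 0.12 (exact permutation p = 0.761 and 0.732, both 0.846 adjusted) and rho of -0.14 and 0.26 (exact permutation p = 0.803 and 0.658). Without the 2 hearts farthest from the median of the chaperone, r was -0.44 and 0.29. Its closest partner was Canx, at r = 0.49 (exact permutation p = 0.315, adjusted p = 0.631) and rho = 0.83 (exact permutation p = 0.0583, adjusted p = 0.514), with r = 0.88 without wild-type hearts 2 and 3, the 2 farthest from the median of Canx. With Serp1 its r was 0.26 (exact permutation p = 0.529, adjusted p = 0.756, rho -0.09 with exact permutation p = 0.919) and -0.72 without the 2 hearts farthest from the median of Serp1. Canx and Serp1 had an r of 0.04 (exact permutation p = 0.936, also after adjustment, rho -0.14 with exact permutation p = 0.803), and 0.59 without wild-type hearts 2 and 3.

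**Figure D3:**
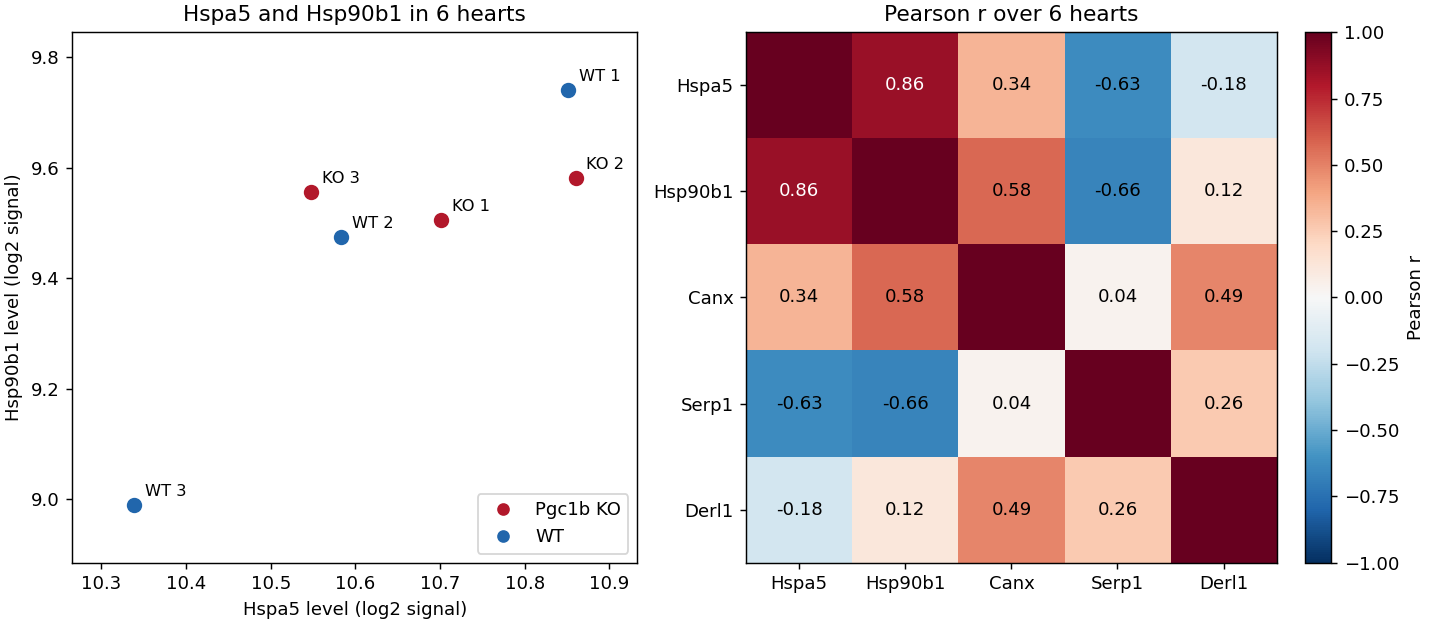
Left, log2 signal of Hspa5 (horizontal) against Hsp90b1 (vertical) in 3 Pgc1b knockout and 3 wild-type hearts. Right, Pearson r over the 6 hearts for all 10 pairs of the 5 genes on their brightest probe sets; Hspa5 with Hsp90b1 is highest at 0.86, and both are negative with Serp1 (-0.63 and -0.66).

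For each gene the 3 other measured genes with the most similar pattern over the 6 hearts were named, as a description drawn from 489 candidates. They were Txnip (r = 0.93), Hdlbp (0.92) and Ccn1 (0.91) for Hspa5. For Hsp90b1 they were Nfib (0.99), Cops8 (0.98) and Pnrc2 (0.93), and in each of these wild-type heart 3 was the lowest as well. For Canx they were Capn10 (0.89), Tspan3 (0.87) and Kap (0.87). For Serp1 they were Atp5g2 (0.97), Copg1 (0.95) and Litaf (0.94), and for Derl1 they were Dctn5 (0.97), Hnrnpab (0.94) and Atg5 (0.92). None of these 15 is a gene of the ER lists used here. Nfib and Kap were dim, with means of 4.65 and 4.57 in knockout hearts and 4.57 and 4.59 in wild-type hearts. An r above 0.8 was reached with 5 genes by Canx, 11 by Hsp90b1, 12 by Hspa5, 16 by Serp1 and 24 by Derl1. These are 1.02% to 4.91% of the candidates, around the 3.69% of all pairs. With the mean of the 5 scaled genes the closest were Tspan3 (0.95), Slc16a1 (0.90), Srsf3 (0.90), Ube2g1 (0.90) and Rps6 (0.88).

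The wider machinery of the ER gave differences of both signs, small in most genes and largest in size for Tmem129, described below. Lists of ER chaperones and folding enzymes, of translocon, signal peptidase and glycosylation genes, and of ER-associated degradation held 14 measured genes with the 5 included. Of these 14, 0 passed the adjusted threshold in either direction, 9 had higher and 5 lower means in knockout hearts, and the median difference was 0.01, as over all genes. Of the 24 listed symbols of unfolded protein response signalling, such as its sensors and transcription factors, 0 were analysed here.

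Among the chaperones and folding enzymes, Prdx4, a peroxiredoxin that works in disulphide formation, had 8.73, 8.67 and 8.67 in the knockout hearts, against 8.38, 8.47 and 8.64 in the wild-type hearts. Every knockout heart lay above every wild-type heart, as in 9.51% of all genes (difference 0.19, 95% interval -0.01 to 0.38, adjusted p = 0.436 in limma, and 0.07 to 0.31 over the alternative fits). The calcium-binding protein gene Calu differed by -0.02, and Ganab, the catalytic subunit of glucosidase II, which trims glycans for the calnexin cycle, by -0.09. Of the translocation genes, Spcs1, of the signal peptidase, differed by 0.07, Ssr3, of the translocon-associated complex, by 0.01, and Sec61a1, the channel itself, by 0.00.

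In ER-associated degradation, Tmem129, a ubiquitin ligase of the ER membrane, had 6.68, 6.90 and 6.85 in the knockout hearts, against 7.16, 7.17 and 7.10 in the wild-type hearts. The knockout hearts were all lower, as in 49 of the 494 genes (difference -0.33, 95% interval -0.52 to -0.15, adjusted p = 0.301 in limma, and -0.38 to -0.27 over the alternative fits). Tmem129 was the 1 gene of the 14 with an unadjusted p under 0.05 in limma, where 11.5% of all genes had one. Herpud2 and Aup1, of the same list, had differences of 0.09 and 0.00, and their groups overlapped. Tmem129 and Derl1 have been placed in 1 export route in human cells. Here the groups were separate for Tmem129 and overlapped for Derl1, and the difference between the 2 genes was not tested.

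**Figure D4:**
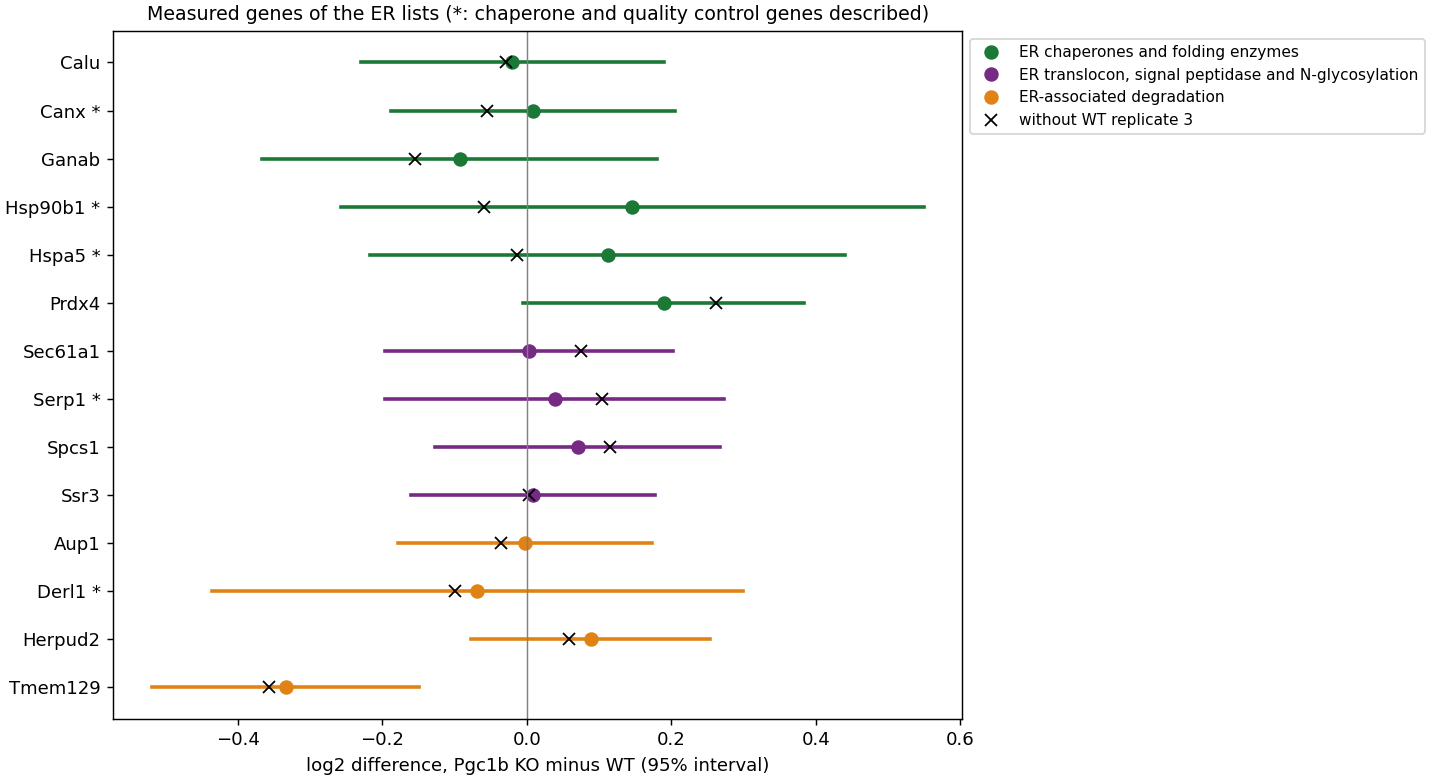
Log2 difference, Pgc1b knockout minus wild-type hearts, of the 14 measured genes of 3 ER lists (circles, coloured by list) with the 95% interval of limma (lines, 3 hearts per genotype), and the difference without wild-type heart 3 (crosses). The interval of Tmem129 alone leaves out 0, and the crosses of Hspa5, Hsp90b1 and Canx lie on the other side of 0 from their circles.

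The other 9 ER genes were also set against the 5 across hearts. Of these 45 pairs, 0 had an r above 0.8, against 3.69% of all pairs, and 1 had an r below -0.8, against 3.00%. That pair was Serp1, on its brighter probe set, with Aup1, at r = -0.96 (exact permutation p = 0.00278, adjusted p = 0.125 over 45 pairs). Their rho was -0.94 (exact permutation p = 0.0167, adjusted p = 0.750), and r was -0.95 without knockout heart 1 and wild-type heart 1. The dimmer probe set of Serp1 was not set against Aup1. Serp1 with Aup1 is named because it was the 1 pair past that limit.

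Chaperones of the cytosol were set beside those of the ER. Of 8 measured, 0 passed the adjusted threshold, and 7 had higher and 1 a lower mean in knockout hearts, with a median difference of 0.14. Over all genes, 52.4% had a higher mean in knockout hearts, and the median difference was 0.01. The 8 include Cct2, Cct3, Cct4, Cct7 and Cct8, which are subunits of 1 chaperonin, and the 8 were not tested as a set. Dnaja1, a cochaperone of the cytosolic Hsp70 system, had 8.77, 9.48 and 9.90 in the knockout hearts, against 8.69, 9.06 and 8.79 in the wild-type hearts. Knockout hearts 2 and 3 were high and the groups overlapped (difference 0.53, 95% interval -0.08 to 1.14, adjusted p = 0.465 in limma). The difference was 0.27 without knockout heart 3, 0.84 without knockout heart 1 and 0.22 with the spike covariate described below. Cct4, a subunit of the chaperonin that folds actin and tubulin, differed by 0.15 without overlap of the groups (adjusted p = 0.446 in limma). Every knockout heart lay above every wild-type heart in 9.51% of all genes. Hspa4 differed by 0.14, with 0.06 to 0.29 over the alternative fits and 0.07 without wild-type heart 3. Trap1, the 1 measured chaperone of mitochondria, differed by -0.01.

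Some of the array controls differed between the genotypes and others did not. The spikes for hybridisation, bacterial and phage transcripts that control for array handling, were at 9.55, 9.68 and 9.32 on knockout arrays and at 10.15, 9.84 and 9.69 on wild-type arrays, lower on all knockout arrays (difference -0.38, exact permutation p = 0.1, the smallest that 3 against 3 allows). The 3′ signal of Actb minus its 5′ signal, which tracks RNA quality and amplification, was 0.63, 0.73 and 0.51 in knockout hearts and 0.75, 0.74 and 0.77 in wild-type hearts, lower in every knockout heart (difference -0.13, exact permutation p = 0.1). The same measure for Gapdh was 0.08 ± 0.11 in knockout and 0.08 ± 0.09 in wild-type hearts (SD, n = 3 each, exact permutation p = 1), and the poly-A spikes, which pass through labelling, were at 7.14 ± 0.58 and 7.08 ± 0.43 (exact permutation p = 0.9). With the spike level as a covariate the difference was 0.49 for Hspa5 (95% interval 0.24 to 0.74, unadjusted p = 0.00274 and adjusted p = 0.250 in limma). It was 0.51 for Hsp90b1 (95% interval 0.03 to 0.99, unadjusted p = 0.0399 and adjusted p = 0.443 in limma), -0.14 for Serp1, -0.19 for Derl1 and 0.04 for Canx. In that fit 16 of the 494 genes had an unadjusted p under 0.01 in limma, and 0 passed the adjusted threshold. The spike levels of the genotypes did not overlap, so this fit can hardly tell spike level from genotype. No corrected difference is read from it. The part of array handling and RNA quality in the differences was not tested further.

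Of the heart muscle markers, 3 of 20 were measured. Gja1, the main gap junction gene of the ventricle, was at 10.71 ± 0.18 in knockout and 10.71 ± 0.14 in wild-type hearts, and Fabp3, which binds fatty acids in muscle cells, at 13.57 ± 0.06 and 13.52 ± 0.05 (SD, n = 3 each). The cardiac actin gene Actc1, at 14.12 ± 0.01 and 14.11 ± 0.03, lay at the top of the range of the table, and saturation of its signal was not tested. Of the markers of other cells, Sdc1, listed here for plasma cells, was lower on all knockout arrays on its brighter probe set, as were 49 of the 494 genes. It had 5.14, 4.99 and 5.35 in the knockout hearts, against 5.42, 5.67 and 5.68 in the wild-type hearts (difference -0.43, adjusted p = 0.342 in limma). With the mean of its probe sets the difference was -0.21, and with the spike covariate -0.71. Sdc1 was the 1 measured of the 8 symbols of that list, and whether its signal came from plasma cells was not tested. Of red cells, Bpgm had a difference of 0.31 and Car1 one of 0.13. Mpo of neutrophils differed by 0.10, Tie1 of the endothelium by -0.08, and the groups overlapped in all 4. Mpo and Car1 were dim, so their differences say little about these cells. Mpo had means of 3.59 in knockout and 3.50 in wild-type hearts, and Car1 of 4.05 and 3.92, where the lowest signal of any probe set was 2.56. Markers of fibroblasts, smooth muscle, macrophages, lymphocytes, fat and skeletal muscle were not analysed here. In whole hearts, fewer cells of a type and less RNA per cell cannot be told apart, and the part of cell make-up in these levels was not tested.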

How the data were processed

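The authors deposited log2 signals in 1 column per array. RMA, Partek and GCOS are named, without version, role or order, per the submitters' processing notes. RMA as usually run sets all arrays to 1 distribution, which would remove a shift of all genes, and whether this was done here is not stated. The median of the gene probe sets lay between 7.45 and 7.61 on the 6 arrays. A genome build was not given in the sources used here. Values were present for 707 of 45101 rows, 643 of them gene probe sets and 64 controls, and the other rows were not analysed here. Of the 643, 597 had 1 gene symbol, and all 597 matched RefSeq by gene ID. They cover 494 genes, each represented by its probe set with the highest mean.

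The main comparison of genotypes used R 4.3.3 and its package limma 3.58.1 (two-sided, lmFit with eBayes, no covariate, no filter), with Benjamini-Hochberg adjustment over the 494 genes. The script was tested on simulated data. Correlations used all 6 hearts, with exact two-sided permutation over pairings. Alternatives were the prior variance, array weights, quantile normalization, centring, averaged probe sets, a filter at a log2 value of 6, the spike covariate, the replicate block and leaving out each heart. The genes named are the 5, all measured genes of the ER lists, chaperones of other compartments, markers, and the genes with the most similar patterns. The 5 genes and the lists were chosen with earlier results of these data known. Detection calls were not used here, and the number of arrays limits the precision.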

Additional observations from a re-analysis of the deposited data

How the results depend on the processing

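No alternative brought any of the 5 genes past an adjusted p under 0.05 in limma, with adjusted p-values between 0.250 and 0.991 over 71 fits, and each of the 5 changed sign in at least 1. Hspa5 gave -0.0142 and Hsp90b1 -0.0600 without wild-type replicate 3, with ranges over the left-out hearts of -0.0142 to 0.242 and -0.0600 to 0.315. With the spike covariate the differences of Hspa5 and Hsp90b1 were 0.488 and 0.510, above these ranges. Canx gave -0.00796 with array weights, -0.0356 with centred arrays and -0.0547 to 0.0743 over the left-out hearts. Serp1 gave -0.00491 with centred arrays, -0.138 with the spike covariate and -0.0615 to 0.103 over the left-out hearts. Derl1 gave -0.226 to 0.109 over the left-out hearts, positive without knockout replicate 1. The count of genes at an adjusted p under 0.05, 0 in the reported fit, was 1 with a prior variance that follows expression, and 0 whichever heart was left out. The count at an unadjusted p under 0.01, 12 as reported, was 20 with that prior, 22 with array weights and 3 to 17 over the left-out hearts (7 and 6 without knockout replicates 2 and 3, 7 and 3 without wild-type replicates 1 and 2). The labels do not say whether the replicate numbers pair the hearts. Deviations of same-numbered hearts correlated at -0.15, -0.08 and 0.18 over genes. Hearts 3 correlated best with each other, but not every heart correlated best with its own number. With 3 hearts per genotype this cannot settle whether hearts were paired. The replicate block gave 11 genes at an unadjusted p under 0.01 and 0 at the adjusted threshold. The r of Hspa5 with Hsp90b1 was 0.840 after a further quantile normalization (exact permutation p = 0.0667) and 0.672 to 0.944 over the left-out hearts. Pairs with r over 0.8 in size numbered 0 to 2 over the left-out hearts, with 0 without wild-type replicate 3 and 2 without wild-type replicate 2 or knockout replicate 2. The dimmer probe set of Serp1 was added as an alternative after seeing the data. The cause of these changes was not tested.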
